A study of Mus musculus with 8 samples.

Results

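The fractalkine axis and the chemokine receptors examined here were 9 genes: *Cx3cl1*, *Cx3cr1*, *Ccr1*, *Ccr2*, *Cxcr2*, *Cxcr3*, *Cxcr4*, *Ackr1* and *Ackr3*. They were chosen by gene symbol, all 9 were among the 21859 genes counted, and 8 of them were among the 15077 genes left by the filter on low counts. *Cxcr2* did not pass this filter. RNA was taken from the whole aorta of 4 *ApoE-/-* mice and 4 wild-type (WT) C57BL/6 mice, all male, 40 weeks old and on a normal chow diet, with 1 sequencing library per mouse. *ApoE-/-* is a germline deletion of apolipoprotein E, held as a Jackson Laboratory line on the C57BL/6 background, and leads to high plasma cholesterol and atherosclerotic plaque. Whether the WT mice were littermates is not given in the sources used here, so litter and housing cannot be told apart from genotype. The aortas were not sorted into cell types, so fewer cells of a type and less RNA per cell cannot be told apart in any value below.

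Fractalkine, encoded by *Cx3cl1*, is made as a membrane-bound adhesion molecule on activated endothelium and other vessel wall cells, and proteases cut it free as a soluble attractant. Its receptor CX3CR1 marks patrolling monocytes, many tissue macrophages and some lymphocytes. The other receptors bind secreted chemokines: CCR1 and CCR2 draw in monocytes and other leukocytes, CXCR2 neutrophils, CXCR3 activated T cells, and CXCR4 binds CXCL12 on many cell types. ACKR1 and ACKR3 are atypical receptors that bind or take up chemokines without activating G proteins.

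Total depth was 23240995 to 23940156 read pairs on genes in *ApoE-/-* and 18375898 to 21664598 in WT, or 32.3% to 35.6% against 27.9% to 30.2% of all pairs, without overlap between genotypes. The part of this difference in the results was not tested. Values are given as CPM, read pairs scaled to a common library size after TMM normalization. The targeted gene *Apoe* measured 14.7 to 36.3 CPM in *ApoE-/-* and 536 to 857 CPM in WT (log2 fold change -4.83, SE 0.37, adjusted p = 0.0141 by edgeR). Summary levels of marker lists (the mean log2 CPM of the genes) were 4.73 to 6.34 in *ApoE-/-* against 4.13 to 4.49 in WT for 10 macrophage genes and 1.65 to 2.5 against 0.71 to 1.32 for 6 monocyte genes. For 12 endothelial genes they were 6.89 to 7.16 against 7.38 to 7.43, and for 8 heart muscle genes 1.82 to 4.13 against 4.84 to 6.15. None of the genes on these lists was at 0 throughout a genotype. *ApoE-/-* replicate 1 stood apart from the other *ApoE-/-* mice in the heart muscle list (4.13 against at most 2.04) and was lowest of the 8 mice for the list of 9 smooth muscle genes (8.10). Values without this library are given beside several results of the 9 genes.

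The DNA before the start of 4 of the genes is shown first, to set the ligand, the receptor whose window holds an NF-kB consensus and both CXCL12 receptors side by side. The sequences are from RefSeq (build GRCm38.p6, 5′ to 3′ on the gene's strand) and run from up to 250 bases before the annotated start, leaving out bases that lie in annotated coding-gene exons. Capitals mark a match to the NF-kB consensus in *Ccr1* and to the TATA box in *Cxcr4* and *Ackr3*.
Cx3cl1: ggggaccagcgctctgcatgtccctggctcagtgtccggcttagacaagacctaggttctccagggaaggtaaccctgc
Ccr1: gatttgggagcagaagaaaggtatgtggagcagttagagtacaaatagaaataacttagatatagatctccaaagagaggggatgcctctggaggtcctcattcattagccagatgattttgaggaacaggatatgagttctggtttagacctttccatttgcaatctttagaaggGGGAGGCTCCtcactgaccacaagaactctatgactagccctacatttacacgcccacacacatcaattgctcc
Cxcr4: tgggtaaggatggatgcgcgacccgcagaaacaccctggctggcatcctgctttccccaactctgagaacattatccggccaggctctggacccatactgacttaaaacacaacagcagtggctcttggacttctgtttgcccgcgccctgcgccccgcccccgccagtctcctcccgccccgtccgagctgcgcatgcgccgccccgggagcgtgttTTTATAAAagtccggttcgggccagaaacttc
Ackr3: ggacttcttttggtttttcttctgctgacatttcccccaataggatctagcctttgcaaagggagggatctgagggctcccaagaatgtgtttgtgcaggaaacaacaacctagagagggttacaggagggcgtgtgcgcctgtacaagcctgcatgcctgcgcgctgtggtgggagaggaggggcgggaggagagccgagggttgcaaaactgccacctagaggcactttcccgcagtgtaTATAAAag
These stretches lie at chr8:94771930-94772008 (plus strand, *Cx3cl1*), chr9:123968693-123968942 (minus, *Ccr1*), chr1:128592300-128592549 (minus, *Cxcr4*) and chr1:90203730-90203979 (plus, *Ackr3*).

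Motifs of 4 kinds were searched on both strands of 300-base windows, 250 before to 50 after the start. The NF-kB consensus was in the window of 1 member, *Ccr1*, beginning 74 bases before the start, and in 8.46% of the 32851 RefSeq promoters. The TATA box (TATAAA) was in 3 members, *Cx3cl1*, *Cxcr4* and *Ackr3*, against 13.6% of promoters. In *Cx3cl1* it lay 6 bases before the start, outside the stretch shown, and in *Cxcr4* matches on the 2 strands overlapped. PU.1 (GAGGAAGT) was found in *Cxcr3* only, against 3.20% of promoters, and the interferon-stimulated response element (ISRE) in 0 members, against 3.44%. The windows of *Cx3cl1* and *Cxcr4* held 19 and 20 CpG dinucleotides and that of *Ackr3* held 8, while those of *Ccr1*, *Ccr2*, *Cxcr2*, *Cxcr3*, *Ackr1* and *Cx3cr1* held 1, 1, 2, 4, 4 and 5, around a median of 7 over all promoters. A match describes letters in the DNA and is not evidence of binding.

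In *ApoE-/-* aortas the fractalkine receptor *Cx3cr1* was 4.46-fold higher than in WT and was the 1 member that passed the main test. The ligand *Cx3cl1* and the receptors *Ccr1*, *Ccr2* and *Cxcr3* were higher in every *ApoE-/-* mouse than in every WT mouse, at 2.08-fold to 3.52-fold, without passing it. The WT and *ApoE-/-* values of *Cxcr2*, *Cxcr4*, *Ackr1* and *Ackr3* overlapped. The count of 1 higher member of 8 tested compares with 0.464% of all 15077 genes called by edgeR's quasi-likelihood test (0.371% higher and 0.0929% lower), and 0 members were called lower. Without *ApoE-/-* replicate 1, edgeR called 3 members higher (*Cx3cl1*, *Cx3cr1* and *Ccr1*), while its calls over all genes rose from 70 to 593 of 15147. By non-overlap of the genotypes, 5 of 8 members were higher and none lower, against 8.71% of all genes (5.41% higher and 3.30% lower). An unadjusted edgeR p under 0.05 was reached by 5 members, all higher, against 11.4% of all genes (7.19% higher and 4.17% lower). DESeq2 on the same counts called 4 members higher (*Cx3cl1*, *Cx3cr1*, *Ccr1* and *Ccr2*), against 4.41% of 16425 genes (2.91% of them higher). The log2 fold change was positive in 7 of the 8 tested members with a median of 1.37, whereas over all tested genes 58.0% were positive and the median was 0.05.

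**Figure D1:**
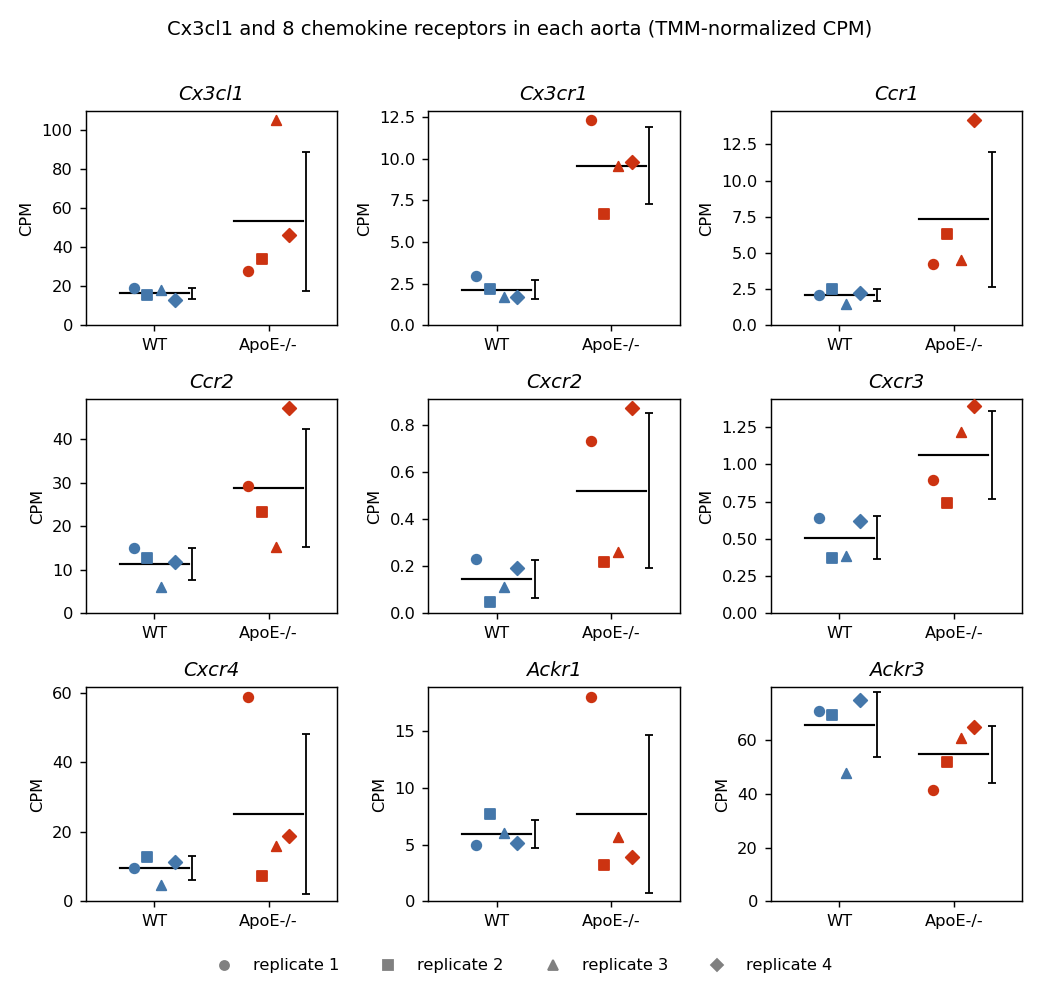
CPM (y axis, linear, from 0) of the 9 genes in each WT (blue) and ApoE-/- (red) aorta, with 1 panel per gene, marker shape for replicate number, a line at the mean of 4 mice and a bar for ± 1 SD. The ApoE-/- points of Cx3cl1, Cx3cr1, Ccr1, Ccr2 and Cxcr3 all lie above the WT points, with 15.2 against 14.9 CPM at the closest approach, for Ccr2.

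*Cx3cl1* (ENSMUSG00000031778.13, chr8:94772009-94782427, plus strand, GRCm38) is the ligand of the axis. It measured 27.6, 33.7, 105 and 46.4 CPM in *ApoE-/-* replicates 1 to 4 and 19.2, 15.3, 18.2 and 12.9 CPM in WT replicates 1 to 4. All *ApoE-/-* mice were above all WT mice, and replicate 3 was 3.80 times the lowest *ApoE-/-* mouse, while WT mice stayed within 1.49-fold. The means were 53.2 ± 35.5 and 16.4 ± 2.86 CPM (SD, n = 4 each). The log2 fold change was 1.70 (SE 0.42, 95% interval 0.74 to 2.65), and the edgeR adjusted p was 0.120, ranking 420 of 15077 by p. DESeq2 gave an adjusted p of 0.00282. Leaving out *ApoE-/-* replicate 1 gave 1.92 (edgeR adjusted p = 0.0339), and leaving out replicate 3, the highest, gave 1.13 (edgeR adjusted p = 0.143). With each of the 8 mice left out in turn, DESeq2 stayed past the threshold in 8 of 8 fits (adjusted p of at most 0.0328).

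The level of *Cx3cl1* was also set against the 12 endothelial genes of the same library. Of these, 6 were lower in every *ApoE-/-* mouse, against 3.30% of all genes. The mean of the list differed by -0.44 between genotypes, and this fall enters the difference that follows. On a log2 scale *Cx3cl1* lay 1.44 ± 0.86 below the mean of the list in *ApoE-/-* and 3.39 ± 0.27 below it in WT (SD, n = 4 each), a difference of 1.95. The ranges of the genotypes were apart (p = 0.0286 by exact permutation, two-sided, which is the lower limit for 4 mice against 4), and the p adjusted over the 9 members was 0.257. Other cells of the vessel wall, smooth muscle cells included, can also make fractalkine, and the source of the transcript was not tested.

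*Cx3cr1* (ENSMUSG00000052336.7, chr9:119901616-120069879, minus strand) encodes the fractalkine receptor. It measured 12.3, 6.65, 9.54 and 9.81 CPM in the *ApoE-/-* mice and 2.98, 2.15, 1.72 and 1.72 CPM in the WT mice. The lowest *ApoE-/-* value was 2.23 times the highest WT value, the widest gap among the 9 genes, and the *ApoE-/-* mice differed among themselves by at most 1.86-fold. The means were 9.58 ± 2.33 and 2.14 ± 0.60 CPM (SD, n = 4 each). *Cx3cr1* rose by a log2 fold change of 2.16 (SE 0.27, 95% interval 1.55 to 2.77, edgeR adjusted p = 0.0355), rank 13 by p among all genes, and DESeq2 gave an adjusted p of 3.24e-11. Without *ApoE-/-* replicate 1 the log2 fold change was 2.01 (edgeR adjusted p = 0.00871). The edgeR call held in 2 of the 8 fits that left out 1 mouse, those without *ApoE-/-* replicate 1 or 2, with adjusted p between 0.00871 and 0.149 and log2 fold changes between 2.01 and 2.36. The DESeq2 call held in 8 of 8 such fits. The annotated span of *Cx3cr1* reaches across introns that hold other genes, and its exons overlap an antisense RNA gene that was not counted. The deposited counts are marked as stranded.

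*Cx3cr1* is itself expressed by macrophages, and of 10 other macrophage markers 8 were higher in every *ApoE-/-* mouse, against 5.41% of all genes, and 1 was called higher by edgeR, against 0.371%. The mouse with the highest macrophage list was replicate 4 (6.34), whereas *Cx3cr1* was highest in replicate 1, whose macrophage list was the lowest of the *ApoE-/-* mice (4.73). *Cx3cr1* relative to that list was higher in *ApoE-/-* by 0.98 on a log2 scale (-2.24 ± 0.83 against -3.22 ± 0.29, SD, n = 4 each, two-sided exact permutation test, p = 0.0571, adjusted over 9 members 0.257). Without replicate 1 this difference was 0.60, and against the median of the list in place of its mean it was 1.54 (exact permutation p = 0.0286, not adjusted). Lymphoid lists were compared as well. The list of 6 natural killer cell genes, 4 of which failed the filter, was at -1.39 to -0.79 in *ApoE-/-* against -2.57 to -1.73 in WT and was highest in replicate 1, as *Cx3cr1* was, and that of 6 B cell genes was at 0.47 to 1.54 against -0.38 to 0.15. The T cell list overlapped, at -0.13 to 0.67 against -0.57 to 0.03, and was also highest in *ApoE-/-* replicate 1. The B cell list was highest in *ApoE-/-* replicate 3, and the monocyte list in *ApoE-/-* replicate 4. The part of macrophage content in the *Cx3cr1* result was not tested further, and that of lymphoid cells was not tested.

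Ligand and receptor were compared within each aorta as the log2 ratio of *Cx3cl1* to *Cx3cr1*. It was 1.16, 2.33, 3.45 and 2.23 in *ApoE-/-* and 2.65, 2.78, 3.34 and 2.84 in WT. Replicates 1, 2 and 4 of *ApoE-/-* lay below all WT mice and replicate 3 above them. The difference in means was -0.61 (two-sided exact permutation test, p = 0.314). Without *ApoE-/-* replicate 1 it was -0.23 (exact permutation p = 0.60), and without *ApoE-/-* replicate 3 it was -0.99 (exact permutation p = 0.0286, the smallest that 3 against 4 mice allow). Within genotype, *Cx3cl1* and *Cx3cr1* varied with a Pearson r of 0.09 over 8 mice and 0.52 over the 7 mice without *ApoE-/-* replicate 1, a description only.

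*Ccr1* (ENSMUSG00000025804.5, chr9:123962124-123968692, minus strand) is a receptor for CCL3, CCL5 and related chemokines on monocytes and neutrophils. It measured 4.22, 6.30, 4.53 and 14.2 CPM in *ApoE-/-* and 2.07, 2.48, 1.5 and 2.25 CPM in WT. Replicate 4 was the highest and the lowest *ApoE-/-* mouse was 1.70 times the highest WT mouse. *Ccr1* had a log2 fold change of 1.81 (SE 0.42 and, by edgeR, adjusted p = 0.107, DESeq2 adjusted p = 0.00218). Without replicate 4 it was 1.27 (edgeR adjusted p = 0.104), and without replicate 1 it was 2.00 and passed the threshold (edgeR adjusted p = 0.0365). DESeq2 called *Ccr1* in all 8 fits that left out 1 mouse.

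*Ccr2* (ENSMUSG00000049103.14, chr9:124101950-124113557, plus strand) encodes the receptor for CCL2 on inflammatory monocytes. It measured 29.2, 23.4, 15.2 and 47.2 CPM in *ApoE-/-* and 14.9, 12.6, 6.04 and 11.7 CPM in WT. The genotypes were separated by a factor of only 1.02, and replicate 4 was again the highest. Its log2 fold change was 1.34 (SE 0.39 and, by edgeR, adjusted p = 0.186, DESeq2 adjusted p = 0.0207). It was 1.33 without replicate 1 and 1.00 without replicate 4, and DESeq2 called it in 4 of the 8 fits that left out 1 mouse.

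Relative to the macrophage list, *Ccr1* differed between genotypes by 0.48 (exact permutation p = 0.0857, n = 4 each) and *Ccr2* by 0.16 (exact permutation p = 0.83), and the adjusted p were 0.257 and 0.932. Against the median of the list these differences were 1.04 (exact permutation p = 0.0286, not adjusted) and 0.72 (exact permutation p = 0.0857). Against the mean, that of *Ccr2* changed sign without *ApoE-/-* replicate 1 (-0.13) or WT replicate 3 (-0.039). Replicate 4, the mouse with the most macrophage marker RNA, had the highest *Ccr1* and *Ccr2*. Replicates 3, 2 and 1 of *ApoE-/-* had macrophage lists of 5.50, 5.34 and 4.73. Their *Ccr2* measured 15.2, 23.4 and 29.2 CPM, in the reverse order, and their *Ccr1* 4.53, 6.30 and 4.22 CPM. The part of macrophage content in the differences of *Ccr1* and *Ccr2* was not tested further.

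*Cxcr2* (ENSMUSG00000026180.8, chr1:74153989-74161246, plus strand), the neutrophil receptor for CXCL1 and CXCL2, was near the limit of detection. It had 18, 5, 6 and 20 read pairs in the *ApoE-/-* mice and 5, 1, 2 and 4 in the WT mice, or 49 against 12 in all. Replicates 1 and 4 held most of the *ApoE-/-* pairs, and the genotypes overlapped. With no filter on low counts it differed by 1.79 on the log2 scale (SE 0.62, adjusted p of edgeR 0.325), and DESeq2 gave an adjusted p of 0.241. Of 10 neutrophil marker genes, 8 failed the same filter, and the summed level of the list was 8.22 to 18.2 CPM in *ApoE-/-* and 2.59 to 4.04 CPM in WT. This sum was carried largely by *Csf3r* (5.34 to 8.77 against 1.16 to 2.11 CPM), while *Ly6g*, *Mpo* and *Camp* had at most 4 read pairs in any library and *Ltf* had 5 to 7 against 4 to 15. *S100a9* (1.01 to 3.60 against 0.38 to 0.46 CPM), *S100a8* (0.39 to 2.78 against 0.14 to 0.37 CPM) and *Mmp8* (0.12 to 1.61 against 0.05 to 0.11 CPM) were higher in every *ApoE-/-* mouse. Of the list, edgeR called 1 gene of 2 tested, *Csf3r*, and DESeq2 called 4 genes of 8, all higher, against 0.371% and 2.91% of all genes. The part of neutrophil content in the *Cxcr2* values was not tested.

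*Cxcr3* (ENSMUSG00000050232.6, chrX:101731535-101734269, minus strand), the receptor for CXCL9 and CXCL10 on activated T cells, was also low. It measured 0.89, 0.74, 1.22 and 1.39 CPM in *ApoE-/-* and 0.64, 0.37, 0.39 and 0.62 CPM in WT. The genotypes did not overlap, with the closest mice 1.16-fold apart. The estimated log2 difference was 1.05 (SE 0.31 and, by edgeR, adjusted p = 0.199, DESeq2 adjusted p = 0.181). The T cell list summed to 11.3 to 17.9 CPM in *ApoE-/-* and 8.25 to 12.2 CPM in WT, and *Cxcr3* relative to that list differed by 0.37 (exact permutation p = 0.171, n = 4 each).

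*Cxcr4* (ENSMUSG00000045382.6, chr1:128588199-128592293, minus strand), the signalling receptor for CXCL12, measured 58.8, 7.26, 15.9 and 18.7 CPM in *ApoE-/-* and 9.55, 12.6, 4.82 and 11.2 CPM in WT. Replicate 1 was 8.10 times replicate 2, which lay inside the WT range. The log2 fold change was 1.39 (SE 0.62, 95% interval -0.02 to 2.81, edgeR adjusted p = 0.451), and without replicate 1 it was 0.54 (edgeR adjusted p = 0.531). The size of the *Cxcr4* difference therefore rested largely on 1 mouse. DESeq2 called it only when replicate 2 was left out, among the DESeq2 fits run (adjusted p 0.0400 to 0.555 over the 8 fits without 1 mouse).

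*Ackr1* (ENSMUSG00000037872.5, chr1:173331886-173333750, minus strand), the atypical receptor of venular endothelium and red cells, measured 18.1, 3.19, 5.66 and 3.95 CPM in *ApoE-/-* and 4.96, 7.68, 6.04 and 5.17 CPM in WT. Replicate 1 was the highest of all mice, and replicates 2 and 4 were below every WT mouse. Over all 8 mice the log2 fold change was 0.37 (SE 0.54 and, by edgeR, adjusted p = 0.862), and without replicate 1 it was -0.48 (edgeR adjusted p = 0.370). The exons of *Ackr1* overlap those of *Cadm3*, a neuronal adhesion gene on the same strand. Pairs that fit both genes may be among the ambiguous pairs left out of the counts. *Cadm3*, looked up after these values were seen, measured 196, 23.2, 32.6 and 30.3 CPM in *ApoE-/-* and 36.3, 50.9, 27.1 and 43.3 CPM in WT, with replicate 1 again far above the rest. How many *Ackr1* pairs came from *Cadm3* was not tested. The lists for the cells that carry *Ackr1* overlapped between genotypes, at 6.11 to 6.56 in *ApoE-/-* against 6.06 to 6.40 in WT for the mean of 3 venous endothelial genes and 0.18 to 2.63 against 1.59 to 2.46 for 6 erythroid genes, and their part was not tested. The 3 venous genes each showed no overlap between genotypes but differed in sign, with log2 fold changes of 1.3 for *Selp*, -0.47 for *Ephb4* and -0.49 for *Nr2f2*, none past the edgeR threshold.

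*Ackr3* (ENSMUSG00000044337.5, chr1:90203980-90216751, plus strand), which takes up CXCL12, measured 41.3, 51.7, 60.9 and 65.0 CPM in *ApoE-/-* and 71.0, 69.4, 47.8 and 75.1 CPM in WT. The ranges overlapped, and replicate 1 was the lowest mouse. The log2 fold change was -0.27 (SE 0.19, 95% interval -0.69 to 0.16, edgeR adjusted p = 0.715). The interval includes both a decrease and a small increase. Without replicate 1 the log2 fold change was -0.15. *Ackr3* was the 1 tested member with a negative fold change over all 8 mice.

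**Figure D2:**
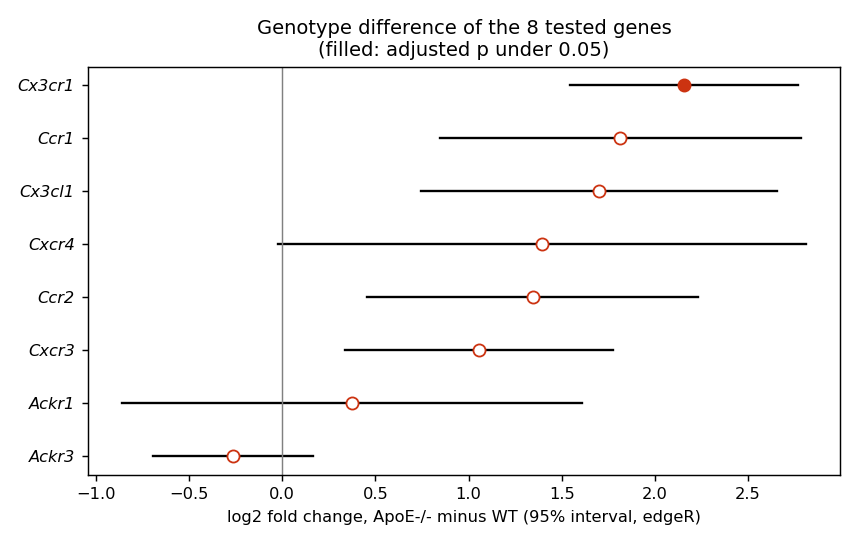
Log2 fold change (x axis, ApoE-/- minus WT, edgeR) of the 8 tested genes (y axis) with its 95% interval, and a filled circle for an adjusted p under 0.05. The interval of Cx3cr1 runs from 1.55 to 2.77, and those of Cxcr4, Ackr1 and Ackr3 include 0.

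The 4 *ApoE-/-* mice differed in which receptor was high. Relative to the WT mean, replicate 1 had 5.75-fold *Cx3cr1*, 6.15-fold *Cxcr4* and 3.03-fold *Ackr1*, but 1.69-fold *Cx3cl1*, its lowest among the *ApoE-/-* mice. Replicate 3 had 6.42-fold *Cx3cl1* and, at 1.35-fold, the lowest *Ccr2*. Replicate 4 had 6.85-fold *Ccr1*, 4.17-fold *Ccr2* and 6.0-fold *Cxcr2*. Replicate 2 had no member at its highest, and its largest ratio was 3.10-fold, for *Cx3cr1*. After subtraction of genotype means, the log2 levels of *Ccr1* and *Ccr2* had a Pearson r of 0.75, of *Cxcr4* and *Ackr1* 0.83, and of *Cx3cr1* and *Cxcr4* 0.72 over the 8 mice. Without replicate 1, an alternative chosen after seeing the data, they were 0.92, 0.42 and 0.59 over 7 mice. The points of each pair share their libraries.

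**Figure D3:**
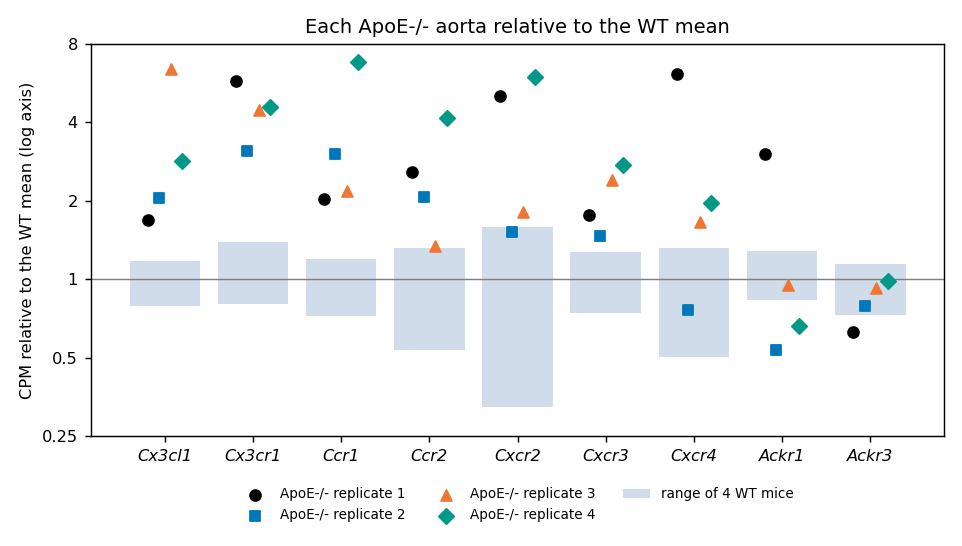
CPM of each ApoE-/- aorta divided by the WT mean (y axis, log scale) for the 9 genes (x axis), with a marker for each replicate and a grey-blue band for the range of the 4 WT mice. Replicate 1 is highest for Cx3cr1, Cxcr4 and Ackr1, replicate 3 for Cx3cl1 (6.42) and replicate 4 for Ccr1 (6.85), Ccr2, Cxcr2 and Cxcr3.

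Levels between genes were compared per kilobase of annotated exon. In WT aortas the order was *Ackr3* (19.7 ± 3.65 CPM per kb), *Cxcr4* (5.29 ± 1.88), *Ackr1* (4.24 ± 0.88), *Cx3cl1* (4.17 ± 0.73), *Ccr2* (1.67 ± 0.56), *Ccr1* (0.73 ± 0.15), *Cx3cr1* (0.48 ± 0.13), *Cxcr3* (0.29 ± 0.08) and *Cxcr2* (0.05 ± 0.03; SD, n = 4 each). Of these neighbours, *Cxcr4* and *Ackr1*, *Ackr1* and *Cx3cl1*, and *Ccr1* and *Cx3cr1* overlapped in range, and each other pair was separate. In *ApoE-/-* aortas *Cx3cl1* reached 13.5 ± 9.03 CPM per kb and stood just below *Ackr3* (16.3 ± 3.14) and *Cxcr4* (13.9 ± 12.7), with all 3 ranges overlapping. Without replicate 1, an alternative chosen after seeing the data, *Cxcr4* was at 7.72 ± 3.30 and *Cx3cl1* at 15.7 ± 9.69 CPM per kb (SD, n = 3), so the order of these genes in *ApoE-/-* depends on that mouse. *Cx3cr1* stood at 2.13 ± 0.52 CPM per kb in *ApoE-/-*, still next after *Ccr1* (2.58 ± 1.65) and overlapping with it.

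*Ccr1* and *Ccr2* lie near each other on chromosome 9, spanning 151434 bp together, with other chemokine receptor genes around them. In the order of the chromosome, the log2 fold changes were 0.01 for *Ccr9*, 0.18 for *Cxcr6*, 0.37 for *Xcr1*, 1.81 for *Ccr1* and 1.34 for *Ccr2*, while *Ccr1l1* and *Ccr3* had too few counts to be tested. *Ccr1* and *Ccr2* did not overlap between genotypes, whereas *Ccr9*, *Cxcr6* and *Xcr1* did. Pairs that aligned to several places were left out of the counts, so reads from stretches that a receptor gene shares with a paralog may be missing.

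The other genes of the family put the members in context. Among the further chemokine receptors, *Ackr4*, an atypical scavenger of CCL19 and CCL21, had lower values in every *ApoE-/-* mouse at 13.2 ± 2.42 against 23.6 ± 6.03 CPM (SD, n = 4 each, log2 fold change -0.84, edgeR adjusted p = 0.126, DESeq2 adjusted p = 0.00928). DESeq2 no longer called it without *ApoE-/-* replicate 3, WT replicate 1 or WT replicate 4. *Ccr3*, *Ccr4*, *Ccr6*, *Ccr8*, *Ccr1l1* and *Cxcr1* did not pass the filter on low counts. *Ccr6*, a receptor of B cells and some T cells, had 21, 12, 14 and 10 read pairs in *ApoE-/-* and 2, 5, 2 and 1 in WT, without overlap, and DESeq2 called it higher. Among the DESeq2 fits that left out 1 mouse, it was called only without *ApoE-/-* replicate 2, *ApoE-/-* replicate 4 or WT replicate 2. The tally of this list in the main test is not given, and its counts under other settings follow in the section on processing.

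Of 19 listed ligands of the member receptors, *Cxcl11* was not among the counted genes, and 15 were tested. edgeR called *Ccl2*, the ligand of CCR2, at 5.84 ± 1.45 against 1.31 ± 0.26 CPM (log2 fold change 2.15, SE 0.25, edgeR adjusted p = 0.0355), and *Cxcl2*, a ligand of CXCR2, at 0.82 ± 0.21 against 0.17 ± 0.06 CPM (log2 fold change 2.24, SE 0.34, edgeR adjusted p = 0.0434; SD, n = 4 each). *Cxcl2* had only 5, 2, 3 and 4 read pairs in the WT mice, limma-voom did not call it, and edgeR called it in 1 of the 8 fits that left out 1 mouse, as it did *Ccl2*. Of the 15 tested, 7 ligands were higher in every *ApoE-/-* mouse: those 2 and *Ccl7*, *Ccl8*, *Cxcl1*, *Ccl12* and *Ccl3*, against 5.41% of all genes, and 0 were lower. *Ccl4*, *Cxcl3* and *Cxcl5* did not pass the filter, and of these *Ccl4* (0.26 to 0.69 against 0 to 0.14 CPM) and *Cxcl5* (0.17 to 1.04 against 0 to 0.09 CPM) were also without overlap. DESeq2 called 10 of 17 ligands, all higher, against 2.91% of all genes. *Ccl3*, a ligand of CCR1, was at or below 0.28 CPM in the WT mice, so the fitted change is not precise. *Cxcl12*, the shared ligand of CXCR4 and ACKR3, measured 248 ± 23.5 CPM in *ApoE-/-* and 262 ± 44.5 CPM in WT (log2 fold change -0.08, SE 0.15, edgeR adjusted p = 0.908). The CXCR3 ligands *Cxcl9* and *Cxcl10* had log2 fold changes of -0.44 and 0.01, with overlapping genotypes.

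**Figure D4:**
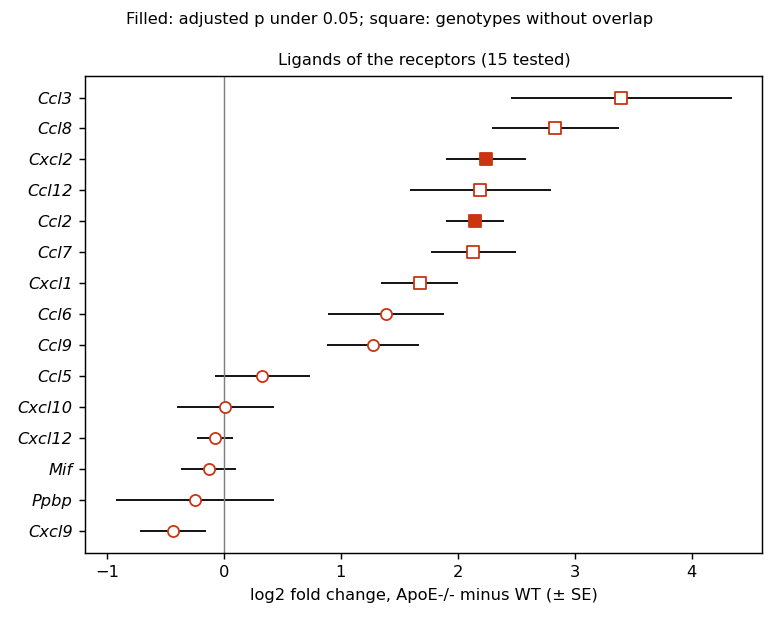
Log2 fold change ± SE (x axis, ApoE-/- minus WT, edgeR) of the 15 ligands tested (y axis), with squares for genes whose genotypes did not overlap and filled symbols for an adjusted p under 0.05. Ccl2 (2.15) and Cxcl2 (2.24) are filled, and all 7 squares lie right of 0.

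The fractalkine sheddases *Adam10* and *Adam17* had log2 fold changes of 0.19 (SE 0.11) and 0.20 (SE 0.13), with overlapping genotypes. *Ctss*, the lysosomal protease cathepsin S, which can also cut fractalkine, measured 45 CPM in the lowest *ApoE-/-* mouse and 19.6 CPM in the highest WT mouse (log2 fold change 3.37, SE 0.58, edgeR adjusted p = 0.0526, DESeq2 adjusted p = 3.77e-08). Of these 6 shedding genes and 22 genes of chemokine receptor signalling, edgeR called 0, against 0.464% of all genes, and 9 had an unadjusted p under 0.05, all higher, against 7.19% of all genes. DESeq2 called 9, all higher, against 2.91% of all genes. The signalling genes without overlap that had the smallest p were the leukocyte genes *Plcb2* (log2 fold change 1.54), *Dock2* (1.19), *Pik3r5* (1.63), *Prex1* (0.83) and *Rac2* (1.38), with edgeR adjusted p between 0.0526 and 0.103.

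The genes most like *Cx3cl1* over the 8 mice, by Pearson r of log2 CPM, were *Plbd2* (r = 0.988), *Sgsh* (0.982) and *Arl6ip5* (0.980). After genotype means were subtracted they were *Mrtfb* (0.974), *Plbd2* (0.968) and *Tnn* (0.963). For *Cx3cr1* they were *Csf2rb* (0.988), *Man1c1* (0.988) and *Il18rap* (0.985), and after subtraction *Csf2rb* (0.980), *Itgb7* (0.961) and *Faap100* (0.960). These are the highest of 15077 genes over 8 points that share libraries and genotype, and are given as a description.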

How the data were processed

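Stranded, ribosome-depleted total RNA libraries from 8 aortas were sequenced as read pairs. The authors deposited, for each mouse, unnormalized counts: the number of pairs assigned to every gene. The submitters' processing notes name TopHat2, HTSeq and GRCm38 (mm10), and versions and annotation are not given in the sources used here. Entries that name no gene (50.1% to 58.0% of pairs in no feature, 11.8% to 14.3% aligned to several places, 0.85% to 1.32% ambiguous) were left out. No 2 libraries were identical.

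Counts were analysed with R 4.3.3. After filterByExpr of edgeR 4.0.16 (15077 genes left) and TMM normalization, genotypes were compared by robust quasi-likelihood F tests, with Benjamini-Hochberg adjustment over all tested genes and a threshold of 0.05, two-sided. The SE is the size of the log2 fold change over the square root of F. Log2 CPM used a prior count of 2. Values per mouse were compared by exact permutation over 70 assignments. Alternatives were DESeq2 1.42.0, limma 3.58.1 (voom), other scalings and filters, no robust estimation, a replicate block and leaving out each mouse. The methods were tested on simulated data.

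Coordinates, overlaps and exon lengths are from GENCODE M21, in which 21817 of 21859 identifiers were found, ignoring versions, and all 9 members with the same version. Promoters of all 9 members matched RefSeq by symbol. Those of *Cx3cr1* and *Ackr1* lie within annotated exons and are not printed. The genes named were the 9 members, *Apoe*, and of the family lists those called by edgeR plus at most 5 per list without overlap, by smallest p, and the genes most like *Cx3cl1* and *Cx3cr1*. Other genes named with values were chosen after their values were seen. 1 gene of the family lists is not reported here. The members, lists and tests were chosen with earlier results of these data known. Replicates are separate mice, so p-values measure the spread between these mice.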

Additional observations from a re-analysis of the deposited data

Results flagged for a closer look

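In 3 of 64 groups of 4 mice examined by Dixon's test, 1 mouse lay further from the rest than its 95% critical value allows, and chance gives about 3.2 such groups. For *Ackr1* the gap of *ApoE-/-* replicate 1 (18.1 CPM, others 3.19 to 5.66 CPM) was 0.834 of the range of the group. In the endothelial list *ApoE-/-* replicate 4 (7.16, others 6.89 to 6.91, mean log2 CPM) had a gap of 0.935 of the range. In the heart muscle list *ApoE-/-* replicate 1 (4.13, others 1.82 to 2.04) had a gap of 0.901 of the range.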

How the results depend on the processing

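*Cx3cr1* was called under 9 of 10 alternatives that kept all mice, DESeq2 and limma-voom among them (log2 fold change 2.11 to 2.16). Of 215 alternative values of the members' fold changes, 180 kept direction and side of the threshold, 26 newly passed it, 7 no longer passed it and 2 changed sign, both for *Ackr1* without *ApoE-/-* replicate 1 (-0.48 in edgeR, where leaving out mice gave -0.48 to 0.63, and -0.49 in DESeq2). DESeq2 called 4 of 9 members, 3 of 14 other chemokine receptors, 10 of 17 ligands and 9 shedding or signalling genes, against 4.41% of all genes. With the replicate number as a block, edgeR called 0 members (*Cx3cr1* adjusted p = 0.0977), 0 other receptors and 0 ligands, and 2 of all 15077 genes. The sources used here do not say that the numbers pair the mice. Same-numbered mice deviated with correlations of 0.06, -0.45, 0.32 and 0.16, and 1 of 4 correlated best with its own number. With 4 mice per genotype these correlations cannot show whether same-numbered mice were handled together. With no filter, at least 10 counts in every mouse, or CPM above 1 in 4 mice, 1 ligand, *Ccl2*, was called. Leaving out each mouse, edgeR called 0 to 3 members, 0 to 1 other receptors, 0 to 6 ligands and 0 to 5 shedding or signalling genes, with the highest counts without *ApoE-/-* replicate 1, where 593 of all 15147 genes tested were called, against 70 with all mice and 0 to 17 in the other such fits. In these fits 5 to 7 members did not overlap. Leaving out a mouse can hardly make separate genotypes overlap, so this range does not measure stability. The share over all genes without overlap in these fits is not given. DESeq2 without each mouse, added after the data were seen, called 3 to 5 members, 1 to 4 other receptors, 5 to 11 ligands (8 without *ApoE-/-* replicate 2 or 3 or WT replicate 1) and 6 to 9 shedding or signalling genes, while its calls over all genes ranged from 427 to 1548, the latter without *ApoE-/-* replicate 1, where 11 ligands were called. The ratio of *Cx3cl1* to *Cx3cr1* ranged from -0.99 to -0.23 on leaving out mice. Relative to its marker list, *Cxcr4* was 0.48 with the list's median and -0.86 to 0.34 on leaving out mice (-0.069 with all mice), *Ccr2* -0.13 to 0.43 and *Ackr1* -0.067 to 0.75. The cause of these changes was not tested. Depth limits *Cxcr2*, with 12 pairs in the 4 WT libraries, and *Cxcr3*, with 42.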
